A study of Helianthus annuus with 8 samples.

Results

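The transcripts described here were high in sunflower leaves under water deficit. On the head excision array they did not exceed the highest of the 3 controls at 50 days. They are the 150 probes with the largest margin at 45 days, where the margin was the lower of the 2 water deficit values minus the higher of the 2 control values, both as deposited log2 expression values. A probe entered the ranking if it was a single spot and no control probe, if its signal was well above background on all 8 arrays, and if the head excision value did not exceed the highest of the 3 control values at 50 days. The study sets a sensitivity limit of its own on normalised values and treats lower readings as background. That limit was not part of the rule, and some members read below it in controls and after head excision. Of 40243 non-control probes, 40169 were spotted once, 26589 of these were detected on all 8 arrays, and 19342 met the head excision condition and were ranked. The head excision condition removed 7247 detected probes. The margins and the head excision condition are measured values, so the differences between groups that follow describe what was chosen and carry no test.

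The plants were Helianthus annuus, and leaf RNA was hybridised with 1 dye (Cy3) to a 44K oligonucleotide array designed from sunflower expressed sequences. For water deficit and its control, the study's methods name a field experiment with the hybrid VDH 481 at 1 site. They do not describe the head excision and 50-day control plants. The groups were water deficit at 45 days (2 arrays), control at 45 days (2 arrays), head excision at 50 days (1 array) and control at 50 days (3 arrays). Water deficit was a mild deficit, made before flowering by keeping rain off the soil with a plastic mesh and then held by irrigation; in head excision the flower was cut off shortly before flowering, which removes the reproductive sink; controls were untreated plants with irrigation added where rain fell short. The study's methods describe a block design in which 3 plants of a plot formed a unit, with 3 biological replicates for each treatment. Only 2 arrays are labelled for each group at 45 days, and the labels name no plot. The control replicates are numbered consecutively in the labels but not in the study's table of spike-in variation. That table treats its numbered columns as biological replicates, so a number in the labels need not be the study's own number. The spread between arrays of a group may include technical as well as biological differences. The ages are those of the labels, and the methods give another age for the leaf sampled under water deficit. The 45-day arrays lay on one slide and the 50-day arrays on another, so age and slide cannot be told apart. The files carry no gene annotation, so neither the tissue nor the function of the members could be checked against marker genes, and members are called by their probe names.

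When soil water runs short, leaves accumulate abscisic acid, close their stomata and induce genes for osmotic protection, detoxification and transport. A lasting deficit also hastens leaf senescence, the ordered breakdown of chloroplasts and proteins that returns nitrogen to the rest of the plant. The developing sunflower head is the main sink for that nitrogen and for sugars, and cutting it off is used to change leaf senescence without changing the water supply.

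The word "only" in a description of these transcripts as raised by water deficit only rests on a single head excision array and on a ceiling, the highest of 3 controls. Head excision was above the mean of the 50-day controls for 93 of the 150 members (32.1% of the ranked probes) and at least 0.5 above it for 24 members (1.51% of the ranked probes). Those controls were further apart in the members, with a median range of 0.99 against 0.42, which leaves more room under the highest control. Without control replicate 3 at 50 days the members' median difference from the control mean was -0.034. The members' median signal percentile among all probes was 75.24 and 77.61 on the water deficit arrays, 52.88 and 60.4 on the 45-day control arrays, 51.23 on the head excision array and 51.63, 52.89 and 47.92 on the 50-day control arrays. Single members ranged widely around these medians, between the percentiles 40.73 and 99.47 on the water deficit arrays and between 27.5 and 96.87 on the control arrays.

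Array-wide signal was lowest on the 45-day controls. The median processed signal was 143.7 and 144.9 under water deficit, 108 and 89.05 in the 45-day controls, 131.1 after head excision and 136.5, 122.3 and 129 in the 50-day controls, and between 69.84% and 73.45% of the non-control spots were well above background. No member was saturated on any array and none had a spot marked as an outlier. Precision is limited by there being 1 to 3 arrays in each group.

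On the deposited log2 scale the members had medians of 9.93 and 10.21 on the water deficit arrays, against 7.39 and 8.25 on the 45-day control arrays. The medians were 7.19 on the head excision array, against 7.24, 7.39 and 6.79 on the 50-day control arrays. Both water deficit medians stood above those of the other 6 arrays, which ran from 6.79 to 8.25. RNA came from whole leaf tissue, so a change in the share of a cell type and a change in RNA per cell cannot be told apart. Over all 19342 ranked probes the array medians lay between 8.90 and 9.10, which the quantile normalisation of the deposited values largely fixes.

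**Figure D1:**
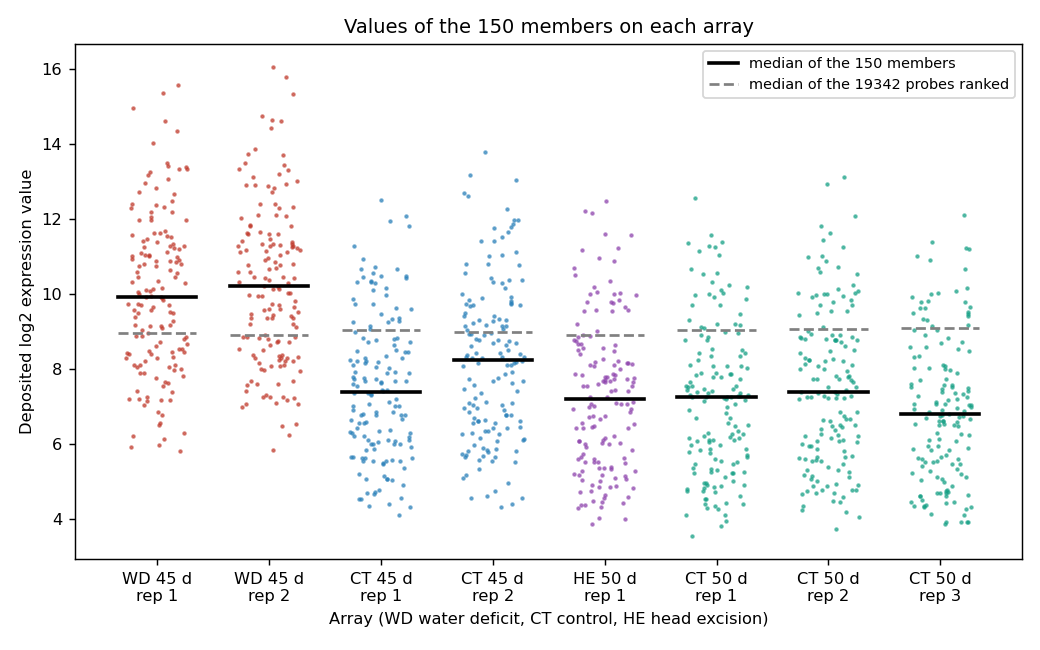
Deposited log2 expression value (vertical axis) of each of the 150 members (points) on each of the 8 arrays (horizontal axis), with the median of the members (solid line) and of all 19342 ranked probes (dashed line). The members' medians of 9.93 and 10.21 under water deficit lie above the dashed lines, and those of the other 6 arrays, from 6.79 to 8.25, lie below them.

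As a share of all non-control signal, the members held 0.343% and 0.451% on the water deficit arrays, against 0.0448% and 0.0772% on the 45-day control arrays. The share was 0.0474% on the head excision array, against 0.0444%, 0.0536% and 0.0329% on the 50-day control arrays. The 10 members with the largest margins held 11.2% and 14.9% of the members' signal under water deficit, against 3.27% and 6.71% in the 45-day controls. The 10 brightest members of each array, which are largely others than the first 10 by margin, held 51.4% and 56.0% of the members' signal under water deficit, against 43.1% and 49.9% in the 45-day controls. The summed signal thus rested to a large part on a few abundant members such as CUST_1498 and CUST_13193.

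The difference between water deficit and control at 45 days had a median of 2.01 on the log2 scale over the members, with a range of 1.31 to 7.61, against a median of -0.08 over all ranked probes. It was at least 2 for 75 members (0.445% of the ranked probes) and at least 3 for 19 members (0.0982%). Both water deficit values were above both control values for all 150 members, which the ranking fixes, and for 25.8% of the ranked probes. In a limma fit over all 40243 non-control probes, 40 members passed an adjusted p of 0.05 with higher values under water deficit, and 1.40% of all probes did so. The rule used this contrast, so nothing is read from these counts, and the number of probes that passed over the whole array fell to 6 or 5 of 40243 when control replicate 2 or 3 at 50 days was left out, and to 0 with the replicate number as a block.

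CUST_34584 had the largest margin. Its values were 12.30 and 14.42 under water deficit, against 5.14 and 6.35 in the 45-day controls. It read 4.02 after head excision, against 4.39, 4.05 and 3.91 in the 50-day controls. The groups at 45 days were 7.61 apart in their means, a ratio of 196, and the 2 water deficit arrays themselves differed by 2.12. Scanner signals after background subtraction were 5589 and 28280 under water deficit, against 26.5 and 53.3 in the 45-day controls, so the controls lay near the low end of the measurable range. Its log2 values after head excision and in the 50-day controls all lay below the study's own sensitivity limit.

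CUST_40864 had a like shape. It had 10.86 and 12.90 under water deficit, against 4.52 and 6.90 in the 45-day controls, and read 5.50 after head excision, against 5.22, 4.24 and 6.54 in the 50-day controls. Its mean difference at 45 days was 6.17, and both pairs of replicates were more than 2 log2 units apart. CUST_27264 was steadier under water deficit, with 11.10 and 11.23, against 6.21 and 7.10 in the 45-day controls. It read 8.47 after head excision, against 7.72, 8.07 and 8.71 in the 50-day controls. All 4 of its 50-day values thus lay between the 2 groups at 45 days.

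CUST_11721 read 9.10 and 9.58 under water deficit, against 5.62 and 6.08 in the 45-day controls. It read 5.17 after head excision, against 4.53, 5.25 and 4.34 in the 50-day controls. CUST_12890 had 11.01 and 11.30 under water deficit, against 8.25 and 8.39 in the 45-day controls, and 8.17 after head excision, against 8.08, 7.25 and 8.31 in the 50-day controls. Replicates of both probes at 45 days were less than 0.5 apart, and the groups were 3.49 and 2.84 apart. CUST_3716 had 10.14 and 10.80 under water deficit, against 6.85 and 7.62 in the 45-day controls, and 5.61 after head excision, against 6.48, 5.82 and 5.64 in the 50-day controls. Its head excision value was just below the lowest control.

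CUST_41317 had 10.76 and 11.17 under water deficit, against 6.77 and 8.44 in the 45-day controls, and 7.74 after head excision, against 7.06, 8.10 and 6.72 in the 50-day controls. CUST_30966 had 8.87 and 8.86 under water deficit, against 6.56 and 6.17 in the 45-day controls, and 5.61 after head excision, against 5.80, 5.95 and 6.27 in the 50-day controls. Its water deficit replicates were the closest of the 10, and it was the only one of them with 45-day control replicate 1 above replicate 2. CUST_15217 had 12.20 and 12.73 under water deficit, against 8.10 and 9.92 in the 45-day controls, and 8.28 after head excision, against 7.84, 9.50 and 7.16 in the 50-day controls. In this probe control replicate 2 was the highest control at both ages.

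CUST_35642 combined a high level with the largest spread among controls in these 10. It had 14.97 and 15.34 under water deficit, against 10.30 and 12.70 in the 45-day controls, and 8.57 after head excision, against 7.16, 8.89 and 4.61 in the 50-day controls. Its margin of 2.27 was small beside the 3.66 between the group means because control replicate 2 was the higher one.

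**Figure D2:**
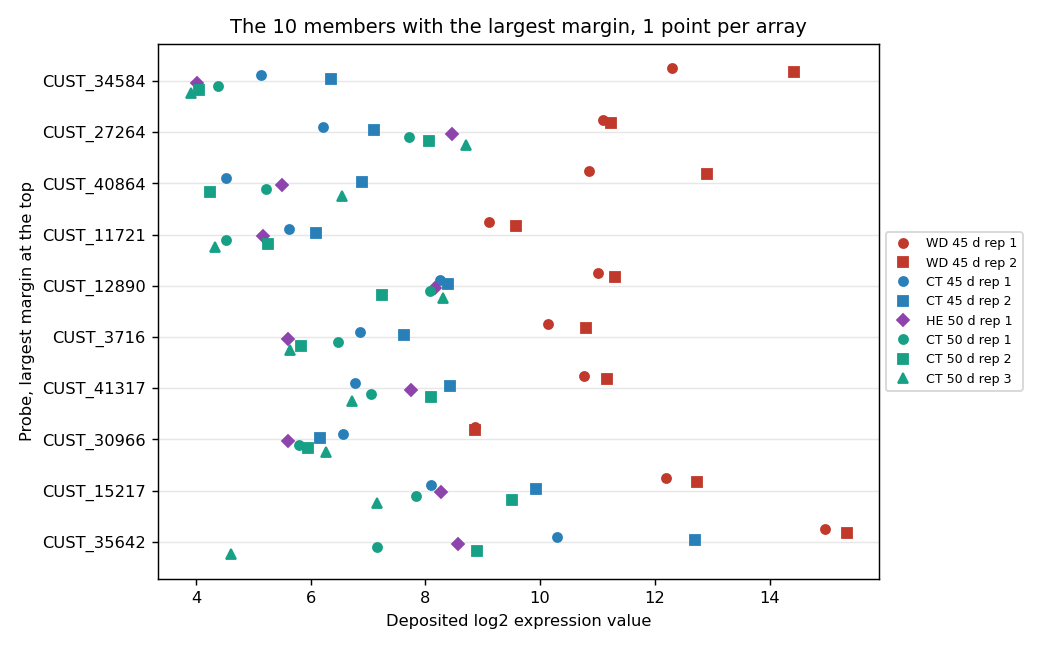
Deposited log2 expression value (horizontal axis) of the 10 members with the largest margin (rows), with 1 point per array coloured by group (WD water deficit, CT control, HE head excision). The margins run from 5.94 for CUST_34584 to 2.27 for CUST_35642, and the head excision point lies among or near the 50-day control points.

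At the other end of the list the margins were close together. CUST_40732, CUST_12989 and CUST_6100, the last 3 taken, had margins of 1.264, 1.264 and 1.263. The next 3 probes, CUST_2515, CUST_4558 and CUST_10733, had margins of 1.257, 1.254 and 1.251 and were left out. CUST_6100 read 8.12 and 8.11 under water deficit, against 6.28 and 6.85 in the 45-day controls. CUST_2515 read 11.54 and 12.40 under water deficit, against 8.78 and 10.28 in the 45-day controls. The excluded probe had the larger difference between group means of the pair, since the margin counts only the nearer replicates.

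The members covered a wide range of levels. CUST_1498 had the highest mean over the 8 arrays. It read 15.57 and 16.05 under water deficit, against 12.07 and 13.78 in the 45-day controls, and 12.17 after head excision, against 11.39, 13.13 and 10.68 in the 50-day controls. CUST_7967 had 14.63 and 14.75 under water deficit, against 12.51 and 13.04 in the 45-day controls, and 11.57 after head excision, against 11.26, 11.80 and 10.90 in the 50-day controls. In both probes the head excision value lay within the range of the 50-day controls.

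CUST_26204 had the closest replicates of the abundant members. It read 13.34 and 13.30 under water deficit, against 11.96 and 11.97 in the 45-day controls, and 11.17 after head excision, against 11.37, 11.44 and 11.39 in the 50-day controls. It was the only member that passed the limma threshold between control leaves of 50 and 45 days, and it was lower at 50 days, as were 0.410% of all probes in that fit. In the other direction 0 members were higher at 50 days (0.644% of all probes). At an unadjusted p under 0.05 in limma, 14 members were higher and 53 lower at 50 days, as were 10.0% and 10.3% of all probes. With the replicate number as a block limma called no probe of the array in this comparison (0 of 40243), so the call of CUST_26204 is lost there. CUST_10544 had 13.07 and 13.45 under water deficit, against 11.29 and 11.64 in the 45-day controls, and 12.49 after head excision, against 12.55, 10.70 and 11.20 in the 50-day controls. CUST_17387 had 13.26 and 13.33 under water deficit, against 10.72 and 11.87 in the 45-day controls, and 11.61 after head excision, against 10.67, 12.09 and 10.08 in the 50-day controls. For CUST_10544 and CUST_17387 the head excision value was above 2 of the 3 controls.

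The 5 members with the lowest means were CUST_38293, CUST_25126, CUST_27097, CUST_8283 and CUST_15507. CUST_38293 read 5.92 and 6.24 under water deficit, against 4.35 and 4.40 in the 45-day controls, and 4.63 after head excision, against 3.82, 4.69 and 4.60 in the 50-day controls. CUST_25126 read 5.82 and 5.84 under water deficit, against 4.09 and 4.31 in the 45-day controls, and 4.48 after head excision, against 4.80, 4.76 and 4.70 in the 50-day controls. The 45-day replicates of both probes were close although the signals were among the dimmest that still passed the background condition on every array. At 50 days the controls of CUST_38293 had a range of 0.87. CUST_27097 had one high water deficit array, with 6.14 and 8.35 under water deficit, against 4.56 and 4.55 in the 45-day controls. CUST_8283 had 6.21 and 7.07 under water deficit, against 4.91 and 4.73 in the 45-day controls, and CUST_15507 had 6.78 and 7.05 under water deficit, against 4.77 and 5.16 in the 45-day controls. None of the 5 exceeded 5.2 in any control of either age.

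The 2 control arrays at 45 days did not read the members alike. Replicate 2 was above replicate 1 for 123 members (44.2% of the ranked probes) and at least 1 above it for 46 members (2.44%). Replicate 1 was at least 1 above replicate 2 for 0 members (3.88%). The median of replicate 2 minus replicate 1 was 0.49 over the members, against -0.05 over all ranked probes. Because the margin is set against the higher control, it was replicate 2 that bounded most members. Without replicate 2 the median difference between water deficit and control was 2.25, and without replicate 1 it was 1.79.

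At 50 days, control replicate 2 was the highest of the 3 controls for 81 members (28.8% of the ranked probes), replicate 1 for 45 (34.3%) and replicate 3 for 24 (36.9%). The range of the 3 controls was at least 1 for 74 members (11.8%), and its median was 0.99 over the members, against 0.42 over all ranked probes. The median range of the 2 water deficit values was 0.32 over the members, against 0.19 over all ranked probes. At 45 days the 2 control values had a median range of 0.51 over the members, against 0.26 over all ranked probes. The replicate spread of the members was thus wider than that of the ranked probes in these 3 groups.

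The spread at both ages was related across members. The gap between the 45-day controls and the deviation of replicate 2 from the mean of replicates 1 and 3 at 50 days correlated with r = 0.352 and rho = 0.461 over the 150 members, and with r = 0.515 over the 19342 ranked probes. These are descriptions across probes that share the same 5 arrays, and the labels do not say whether a replicate number stands for the same plot at both ages. In the 46 members with replicate 2 at least 1 above replicate 1 at 45 days, replicate 2 was also the highest control at 50 days for 30. In the 75 members whose 45-day controls were less than 0.5 apart it was the highest for 31. The limits of 0.5 and 1 were set after the values were seen.

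**Figure D3:**
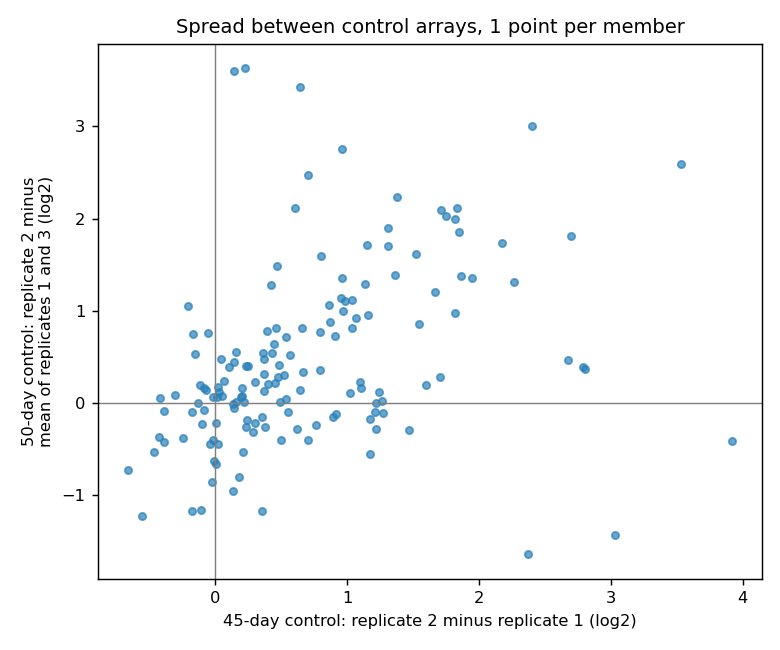
Difference between the 2 control arrays at 45 days (horizontal axis, log2) against the deviation of control replicate 2 from the other 2 controls at 50 days (vertical axis, log2), with 1 point for each of the 150 members. Most points lie right of 0, where 123 members had replicate 2 above replicate 1, and r was 0.352.

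Members with the wide control gap also had the larger differences between groups. Their median difference between water deficit and control at 45 days was 2.75, against 1.74 for the 75 members with close controls. Their medians per array were 11.00 and 11.28 under water deficit, against 7.63 and 9.10 in the 45-day controls. For the members with close controls the medians were 8.87 and 9.35 under water deficit, against 7.31 and 7.23 in the 45-day controls. A fixed margin against the higher control requires a larger mean difference where the controls are further apart.

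Between control leaves of 50 and 45 days, the members had a median difference of -0.63, with a range of -4.61 to 1.95, against a median of 0.03 over all ranked probes. The mean of the 50-day controls was below that of the 45-day controls for 114 members (46.8% of the ranked probes), and at least 1 below for 55 (3.20%). All 3 values at 50 days were below both values at 45 days for 56 members, as for 17.0% of the ranked probes, and above both for 16 members, as for 22.1%. The 45-day controls were part of the ranking and the 50-day controls of the head excision condition, so this difference is not independent of how members were chosen. Against replicate 1 of the 45-day controls alone, all 3 values at 50 days were lower for 59 members (27.5%), and against replicate 2 alone for 98 members (65.3% of the members, and 28.9% of the ranked probes). In the members with close 45-day controls the median difference was -0.20, and in those with a gap of at least 1 it was -1.22.

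The 5 members that were lowest at 50 days included 3 of the most abundant under water deficit. CUST_13193 read 8.35, 9.79 and 6.77 in the 50-day controls, against 11.80 and 13.19 in the 45-day controls, a mean difference of -4.19. It had 15.35 and 15.79 under water deficit and 9.55 after head excision. CUST_2369 read 7.25, 8.77 and 5.11 in the 50-day controls, against 9.08 and 12.61 in the 45-day controls, a mean difference of -3.80. It had 14.35 and 14.62 under water deficit and 7.88 after head excision. Together with CUST_35642, whose difference was -4.61, these probes had control replicate 2 highest and replicate 3 lowest at 50 days.

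The other two in that set had a less uneven spread at 50 days. CUST_31956 read 5.70, 7.25 and 5.83 in the 50-day controls, against 9.35 and 9.82 in the 45-day controls, and 11.63 and 11.28 under water deficit. CUST_33035 read 4.74, 4.78 and 4.27 in the 50-day controls, against 7.05 and 8.76 in the 45-day controls, and 11.04 and 10.58 under water deficit. Their head excision values were 6.74 and 4.74. For these 5 members the order was the same: water deficit was highest, then the 45-day controls, then all 4 arrays at 50 days.

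A smaller set was higher at 50 days than at 45 days. CUST_12787 read 10.20, 10.71 and 11.23 in the 50-day controls, against 8.83 and 8.69 in the 45-day controls. It had 10.92 and 10.42 under water deficit, so its 50-day controls overlapped water deficit. CUST_10771 read 11.03, 11.63 and 12.12 in the 50-day controls, against 10.10 and 9.69 in the 45-day controls, and had 11.96 and 11.59 under water deficit. CUST_36199 read 7.35, 6.09 and 5.71 in the 50-day controls, against 4.54 and 4.57 in the 45-day controls, with 5.97 and 6.54 under water deficit. Its head excision value of 7.09 was above both water deficit values, and it was the only member with a head excision value at or above the lower of the 2. CUST_27264, described above, and CUST_35831, described below with the head excision values, were the other two of the 5 highest.

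**Figure D4:**
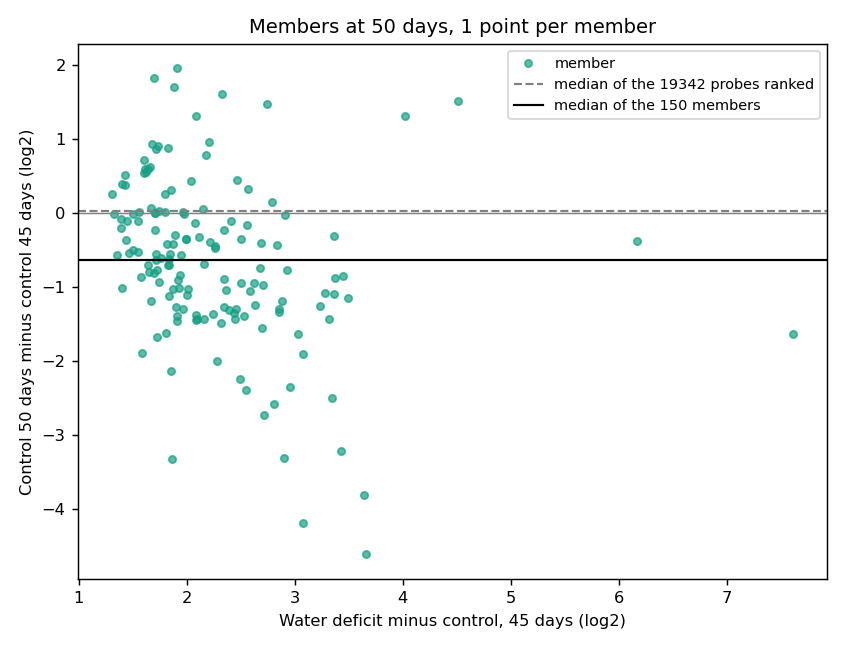
Difference between water deficit and control at 45 days (horizontal axis, log2) against the difference between control leaves of 50 and 45 days (vertical axis, log2), with 1 point for each of the 150 members. The members' median of -0.63 (solid line) lies below the median of 0.03 over all 19342 ranked probes (dashed line), and 114 members lie below 0.

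The water deficit values of most members were above the controls of the older leaves. Both were above all 3 controls at 50 days for 140 members (25.3% of the ranked probes), and at least 1 above the highest of them for 121 (3.97%). Water deficit minus control at 50 days had a median of 2.71 over the members and lies across the 2 slides. The rule used both the water deficit values and the 50-day controls. These counts are thus not independent of how members were chosen. In the remaining 10 members at least 1 control at 50 days reached the lower water deficit value. These were CUST_28633, CUST_35831, CUST_38629, CUST_12606, CUST_12787, CUST_10771, CUST_37851, CUST_38805, CUST_36199 and CUST_10677, and the naming of this set followed the values. CUST_37851 had the widest control gap of all members, with 4.39 and 8.32 in the 45-day controls.

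On the head excision array the members' median lay near those of the 50-day controls, but single members did not all lie close. The value was at least 0.5 above the mean of the controls for 24 members, as for 1.51% of the ranked probes. It was at least 0.5 below that mean for 14 members, as for 13.1% of the ranked probes. Head excision minus the mean of the controls had a median of 0.13 over the members, with a range of -2.75 to 1.68, against -0.11 over all ranked probes. The 3 controls lay further apart in the members, with a median range of 0.99, against 0.42 over all ranked probes. The head excision value was between the lowest and the highest control for 120 members (80.0% of the members and 61.1% of the ranked probes). It was below all 3 for 30 members, as for 38.9% of the ranked probes. A value above all 3 was excluded by the rule. It was above the mean of the controls for 93 members, as for 32.1% of the ranked probes. In the limma fit 0 members passed the threshold in either direction, against 0.283% of all probes with a higher and 0.0447% with a lower value on the head excision array. Before adjustment, limma put 0 members above the controls and 6 members under them at p under 0.05, against 4.50% and 4.44% of all probes. The rule caps the head excision value at the highest control but not at their mean, so these counts are not independent of how members were chosen. Without control replicate 3 the median difference was -0.034, so the direction of the median rested on that array. There was only 1 head excision array, so the difference has no replicate of its own.

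**Figure D5:**
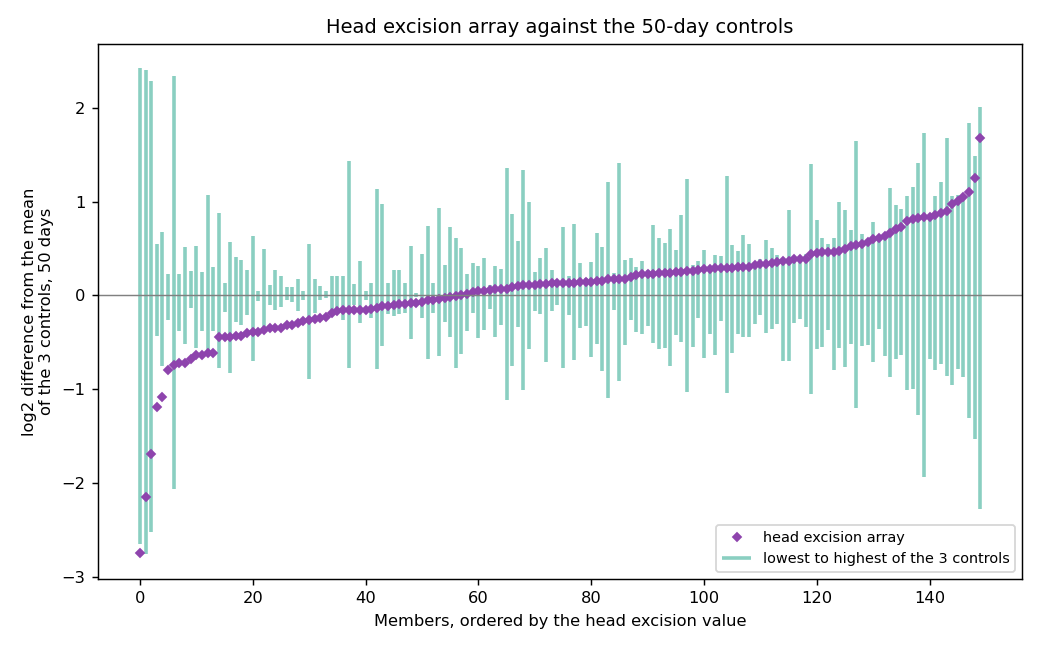
Deviation of the head excision array (diamonds) and of the lowest to highest 50-day control (bars) from the mean of the 3 controls, on the log2 scale (vertical axis), for the 150 members ordered by the head excision value (horizontal axis). The diamond lies on the bar for 120 members and under it for 30.

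The members furthest below the mean of the controls shared an unusual spread among those controls. CUST_35831 read 5.36 after head excision, against 5.46, 10.53 and 8.34 in the 50-day controls. CUST_38629 read 5.52 after head excision, against 4.91, 10.07 and 8.03 in the 50-day controls. CUST_28633 read 6.15 after head excision, against 5.32, 10.13 and 8.08 in the 50-day controls. In all 3 the head excision array was close to control replicate 1, and control replicates 2 and 3 were far above both.

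At 45 days the controls of these 3 probes were much closer together than at 50 days, and their water deficit replicates were 0.75 to 0.93 apart. CUST_35831 had 8.45 and 9.19 under water deficit, against 6.38 and 6.61 in the 45-day controls. CUST_38629 had 8.05 and 8.85 under water deficit, against 6.29 and 6.43 in the 45-day controls. CUST_28633 had 8.66 and 9.59 under water deficit, against 6.06 and 6.70 in the 45-day controls. Their values over the 8 arrays had a median pairwise r of 0.982, and control replicate 2 at 50 days was their highest array.

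The next lowest were CUST_21855 and CUST_10953, and there the controls were closer together. CUST_21855 read 6.22 after head excision, against 7.30, 7.95 and 6.96 in the 50-day controls. CUST_10953 read 7.06 after head excision, against 7.39, 8.22 and 8.82 in the 50-day controls. Both head excision values were below all 3 controls, by 0.75 for CUST_21855, which is the widest such gap among the members.

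At the other end, the 5 members furthest above the mean of the controls were still below the highest control. CUST_35642 and CUST_13193 were above the mean by 1.68 and 1.25, and their values are given above. CUST_12606 read 12.20 after head excision, against 10.57, 12.94 and 9.80 in the 50-day controls. CUST_18020 read 11.22 after head excision, against 9.97, 11.26 and 9.30 in the 50-day controls. CUST_10544 was above the mean by 1.00. For these 5 the highest control was an array well apart from the lowest, so the condition that head excision not exceed the highest control left room for values above most controls.

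CUST_10140, CUST_24320, CUST_11857, CUST_17595 and CUST_10705 had the smallest drops below the mean of the controls. CUST_10705 read 8.67 after head excision, against 8.77, 8.86 and 8.53 in the 50-day controls, and 11.28 and 11.18 under water deficit, against 9.33 and 9.73 in the 45-day controls. CUST_11857 read 8.84 after head excision, against 9.20, 8.83 and 8.59 in the 50-day controls, and 10.10 and 10.45 under water deficit, against 8.02 and 8.16 in the 45-day controls. In these 2 probes the 50-day arrays lay close together, below the 45-day controls for CUST_10705 and above them for CUST_11857. The 50-day controls of the others were wider apart. CUST_10140 read 9.002 after head excision, against 9.17, 8.23 and 9.62 in the 50-day controls. CUST_24320 read 4.71 after head excision, against 4.29, 4.45 and 5.46 in the 50-day controls. CUST_17595 read 7.80 after head excision, against 7.56, 8.77 and 7.20 in the 50-day controls.

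The values over the 8 arrays were much alike among members, as choosing them for high water deficit values leads to. The median Pearson's r over the 11175 pairs was 0.873. There were 112 pairs with r above 0.99, and 83 members took part in at least 1 of them. The sources used here hold no probe sequences, so it was not tested whether any members share a target. When members were grouped by average linkage at r = 0.9, 18 groups resulted, of which 7 held 1 member. The groups were formed after the values were seen and describe shapes only.

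The largest group had 81 members. Relative to each member's own mean, their medians were 2.25 and 2.44 under water deficit, against -0.38 and 0.46 in the 45-day controls, and -1.07 after head excision, against -1.41, -0.87 and -1.43 in the 50-day controls. By these medians water deficit was highest, the 45-day controls intermediate and the 50-day arrays lowest. All 50-day controls were below both 45-day controls for 53 of the 81 members, as for 17.0% of the ranked probes. In these 53 the head excision value was below both as well. The group was formed on these same values, so nothing is read from this count. The second group, of 22 members, had medians of 1.38 and 1.62 under water deficit, against -0.49 and -0.29 in the 45-day controls, and -0.66 after head excision, against -0.43, -0.60 and -0.60 in the 50-day controls. By these medians the controls of both ages were close to each other.

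The third group, of 9 members, followed the control replicates. Its medians were -0.32 after head excision, against -0.86, 0.23 and -1.28 in the 50-day controls, and 1.58 and 1.92 under water deficit, against -1.08 and 0.09 in the 45-day controls. By these medians replicate 2 was the highest control at both ages, and the head excision array lay among the controls. The fourth group, of 8 members, had medians of -0.26 after head excision, against -0.11, -0.12 and -0.13 in the 50-day controls, and 0.97 and 1.12 under water deficit, against -0.83 and -0.62 in the 45-day controls. The medians of the 50-day arrays were thus above those of the 45-day controls and below those of water deficit.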

How the data were processed

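Leaf samples on 8 arrays were analysed. According to the study's methods, the authors corrected Agilent processed signals with normexp (offset 1), took quantiles across arrays and deposited log2 values; those values were the basis here, because the members are defined on them. Each deposited log2 column correlated with its own array at r of at least 0.998 and with any other at no more than 0.991. The deposited scanner tables hold intensity (processed and median signals) and flags for background, saturation and outliers; their headers name Feature Extraction 10.7.1.1 and the submitters' processing notes 9.1. As alternatives, intensities were processed by normexp (offset 1) with quantiles, by scaling to the 75th percentile, and from spot medians with offset 50. Groups were compared in limma 3.58.1 (R 4.3.3, statmod 1.5.0) with a mean per group over all 8 arrays, Benjamini-Hochberg adjustment over 40243 probes and a threshold of 0.05. The fit was tested on data simulated with independent noise, where only the mean estimated difference was checked, so this says nothing of the counts.

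Members and lists were chosen with earlier results of these data known. Probes named were the 10 largest margins, the 5 highest and lowest by mean level, by head excision relative to control (the 5 highest were added after their values were seen) and by age difference, the smallest drops after head excision, and the ranks around the end of the list. The probes carry no gene names in the files. The tables of the study at hand name unigenes and pair none of them with a probe directly, and names reached through a match to its own fold changes and statistics were not used. The RefSeq gene table holds no probe identifiers and was not used.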

Additional observations from a re-analysis of the deposited data

How the results depend on the processing

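All 150 members had both water deficit values above both 45-day controls under the 3 recomputations from scanner intensities; leaving out an array keeps this by construction. The same rule chose 147 and 140 of them again after normexp with quantiles and after scaling to the 75th percentile, and 96 from spot medians. A list of the 75 largest margins holds 75 of them by construction. The members' median difference between water deficit and control at 45 days was 2.01, 1.46 from spot medians, and 1.79 to 2.25 leaving out each array. Head excision minus control was 0.13, 0.038 from spot medians, and -0.034 to 0.23 leaving out each array, with -0.034 without control replicate 3. Control at 50 days minus 45 days was -0.63, -0.29 from spot medians, and -0.91 to -0.37 leaving out each array. The count of 56 members with all 50-day controls below all 45-day controls ran up to 98, which was the count without 45-day control replicate 1, in a check added after the data were seen.

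The counts of probes past the limma threshold were fragile, and the cause was not tested. For water deficit 762 probes passed, 1861 from spot medians, 1709 among detected probes only, 0 on the 45-day arrays alone (8948 at an unadjusted p under 0.05), and 5 to 762 leaving out each array, the lowest without 50-day control replicate 3. For head excision 132 passed, 30 after scaling, 19 from spot medians, 0 among detected probes (2290 unadjusted), 0 on the 50-day arrays alone (3591 unadjusted), and 25 to 103 leaving out each array. Between 50 and 45 days 424 passed, 794 among detected probes, 278 with trended and robust variances, and 2 to 598 leaving out each array. With the replicate number as a block, limma called 0 probes in each of the 3 comparisons (9900, 3922 and 7388 at an unadjusted p under 0.05). Same-numbered arrays deviated together with r of 0.206 between water deficit and control at 45 days, and 0.165 and 0.284 between the controls of both ages; the methods describe a block design and the labels do not tie the numbers to plots, so whether equal numbers mark a shared plot is not settled here.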
